A study of Homo sapiens with 9 samples.

Results

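The genes described here are 36 epithelial junction and identity genes of LAPC4 cells, an established human prostate cancer line that carries the androgen receptor. They were chosen by symbol and function as tight junction, desmosome and polarity genes together with epithelial splicing factors, transcription factors, surface proteins and trafficking genes. All 36 were found among the 60325 gene rows, each had 10 or more counts in at least 3 libraries, and all 36 were among the 16796 genes tested. RNA was sequenced from 9 libraries taken at day 30. The 3 rescue libraries came from cells carrying the UGT2B28 knockdown with UGT2B28 overexpressed on top, kept in 1 mg/mL G418. The 3 libraries labelled knockdown came from cells kept in 3 ug/mL puromycin. The 3 control libraries carry the tag NT, which the labels do not spell out, and no drug is given for them. Neither the knockdown construct, nor whether a line was 1 clone or a pool, is given in the sources used here. UGT2B28 is an androgen-inactivating glucuronosyltransferase, and the design asks what its knockdown and its return do to the transcriptome.

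Tight junctions seal neighbouring epithelial cells near their apical edge. Claudins, occludin and tricellulin span the membrane, and the ZO proteins and cingulin tie them to actin. The Par and Crumbs complexes place the seal between the apical and lateral sides. Desmosomes lie below it and rivet cells together: desmogleins and desmocollins cross the membrane, and plakoglobin, plakophilins, desmoplakin and the plakins link them to keratin filaments. Glandular prostate epithelium uses both, and factors such as GRHL2, ELF3, EHF and the ESRP splicing regulators hold the epithelial state, while ZEB and SNAI factors repress many junction genes through E-box sequences.

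Sequences are shown for the promoters of the 4 genes on which the comparisons below turn most: cingulin, the member that passed the test, ELF3, the one that came nearest after it, and the neighbouring claudins CLDN3 and CLDN4. They come from RefSeq on GRCh38.p14, as the 250 bases before and the 50 after each start, read along the gene's strand: CGN at chr1:151511137-151511436 (plus), ELF3 at chr1:202010337-202010636 (plus), CLDN3 at chr7:73770221-73770520 (minus) and CLDN4 at chr7:73830746-73831045 (plus). Capitals mark matches, on either strand, to a Grainyhead motif (AACCNGTT) or an E-box (CAGGTG), and an ETS motif (CCGGAAG) was searched as well.
CGN: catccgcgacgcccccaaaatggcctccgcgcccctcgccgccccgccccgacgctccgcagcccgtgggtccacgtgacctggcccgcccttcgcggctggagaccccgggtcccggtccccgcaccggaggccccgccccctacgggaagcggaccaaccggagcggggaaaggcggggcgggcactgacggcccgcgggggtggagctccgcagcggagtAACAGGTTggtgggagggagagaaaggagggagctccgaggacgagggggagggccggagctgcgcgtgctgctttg
ELF3: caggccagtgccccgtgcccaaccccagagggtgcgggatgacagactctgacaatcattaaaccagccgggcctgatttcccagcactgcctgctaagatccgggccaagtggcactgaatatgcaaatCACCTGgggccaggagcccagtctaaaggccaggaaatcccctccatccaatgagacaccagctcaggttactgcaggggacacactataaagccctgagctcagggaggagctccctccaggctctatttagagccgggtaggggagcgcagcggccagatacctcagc
CLDN3: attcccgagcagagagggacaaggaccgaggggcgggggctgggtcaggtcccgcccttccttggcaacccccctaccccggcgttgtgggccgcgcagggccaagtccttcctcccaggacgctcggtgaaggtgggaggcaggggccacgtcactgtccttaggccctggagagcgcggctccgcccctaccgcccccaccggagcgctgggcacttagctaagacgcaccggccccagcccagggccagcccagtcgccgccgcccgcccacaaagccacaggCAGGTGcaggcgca
CLDN4: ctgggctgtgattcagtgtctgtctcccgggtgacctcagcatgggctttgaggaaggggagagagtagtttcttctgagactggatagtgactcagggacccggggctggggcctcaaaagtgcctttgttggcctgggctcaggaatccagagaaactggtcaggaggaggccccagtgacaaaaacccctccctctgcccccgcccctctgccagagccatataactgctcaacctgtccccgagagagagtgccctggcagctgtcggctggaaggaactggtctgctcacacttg
Cingulin held 1 Grainyhead match at position -27 from the start. ELF3 held 1 E-box at position -120, CLDN3 held 1 E-box at position 37, and CLDN4 held none of the 3 motifs. No motif overlapped another in these 4 windows. The promoter table held 34 promoters of 23 of the 36 members. The E-box letters stood in 17 of those 34 promoters, or 50%, belonging to 16 genes, against 20.6% of all 35116 promoters of this length and 19.2% of the 15689 promoters of tested genes. The Grainyhead letters stood in 2.94% of member promoters, the one of CGN, against 1.73% of all promoters and 1.43% of those of tested genes. The ETS letters stood in 5.88%, those of CLDN7 and CRB3, against 10.3% of all promoters and 16.6% of those of tested genes. A match to letters is a description and shows no binding.

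The libraries held 8132206 to 14185252 counts in genes. UGT2B28, given as CPM (a gene's counts relative to the library total, scaled by TMM factors), stood at 75.1, 92.9 and 53.6 in rescue libraries, 8.48, 6.18 and 3.05 in knockdown-labelled libraries and 5.12, 5.1 and 7.8 in control libraries. Its mRNA was therefore high in the rescue libraries, and the other groups overlapped (log2 fold change of knockdown-labelled over control -0.04, edgeR adjusted p = 0.957), so the knockdown libraries are named by their label throughout. The 3 knockdown-labelled libraries were uneven: counts per gene in libraries 1 and 2 differed by a chi-square of 3.56 per degree of freedom, against 69.6 and 74.7 between each of them and library 3. Mitochondrial genes took 5.79% to 7.9% of counts in rescue libraries, 15.1%, 15.8% and 10.2% in knockdown-labelled libraries 1, 2 and 3, and 7.62% to 8.57% in control libraries. The label of an epithelial prostate line held in these data. The 8 prostate epithelial markers summed to 2153 to 3991 CPM over the 9 libraries. The 5 leukocyte markers summed to at most 2.37 CPM, and PTPRC was at 0 in all. Other marker lists were not at 0: 6 fibroblast markers summed to 16.8 to 114 CPM and 11 mesenchymal markers to 108 to 181 CPM. Nothing in the labels says that libraries of a group came from separate cultures, so each p-value reflects library-to-library spread alone, and that spread could be purely technical.

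All 8 classes of the 36 genes were read in every group, over a wide range of levels. As CPM per kilobase of exon, averaged over the 9 libraries, CLDN3 led at 212, followed by plakoglobin (JUP, 116), the ETS factor EHF (115), the adhesion molecule EPCAM (114) and CLDN7 (98.3). JUP, EHF and EPCAM lay within their spread of each other. PKP3, RAB25, SPINT2, CLDN4 and AP1M2 followed between 57.3 and 72.6 per kilobase, and the lowest were PPL at 0.827 and CLDN1 at 0.926. The exon length counts every isoform, which lowers the level per kilobase of genes that have many. The steadiest member across all libraries was JUP, with a coefficient of variation of 4.4%, ahead of GRHL2 at 6.14% and SPINT1 at 7.41%, while CLDN1 (52.4%), ELF3 (45.1%) and CLDN3 (41.8%) varied most.

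Few of the junction and identity genes passed the test in any comparison. Between rescue and knockdown-labelled cells 1 of 36 members passed (CGN, higher in rescue, 2.78%) and 5 had an unadjusted edgeR p under 0.05, where 9.83% of all tested genes passed, 4.44% higher and 5.39% lower, and 28.3% had an unadjusted p under 0.05. Between rescue and control cells 0 members passed by edgeR, DESeq2 or limma-voom, 6 had an unadjusted edgeR p under 0.05, and of all genes 0.149% passed in edgeR, 1.94% in DESeq2 and 10.5% before adjustment. Between knockdown-labelled and control cells 0 members passed by the same 3 tools, 7 had an unadjusted edgeR p under 0.05, and of all genes 0.00595% passed in edgeR, 5.93% in DESeq2 and 19.1% before adjustment. In rescue over knockdown-labelled cells DESeq2 passed 4 members and 16.1% of all genes, and limma-voom passed 1 member and 1705 genes. Limma-voom passed 13 genes in rescue over control and 1 in knockdown-labelled over control cells. The median log2 fold change of the members was 0.03, 0.12 and 0.14 in these comparisons in turn, beside -0.00, -0.01 and 0.02 for all tested genes. The absolute log2 fold change was under 0.5 for 33, 31 and 33 members, beside 68.5%, 84.1% and 76.9% of all tested genes. The 95% interval of the fold change lay within 2-fold either way for 32, 30 and 33 of the 36 members, that is 88.9%, 83.3% and 91.7%, beside 58.7%, 67.8% and 63.1% of all tested genes. Fold changes and their intervals spread more widely at low counts, and all tested genes were not matched to the members by count level. These shares therefore do not show that the members were steadier than other genes of like level. In bulk RNA, fewer cells of a kind and less RNA per cell cannot be told apart. The 3 comparisons share libraries in pairs and are not independent of each other.

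**Figure D1:**
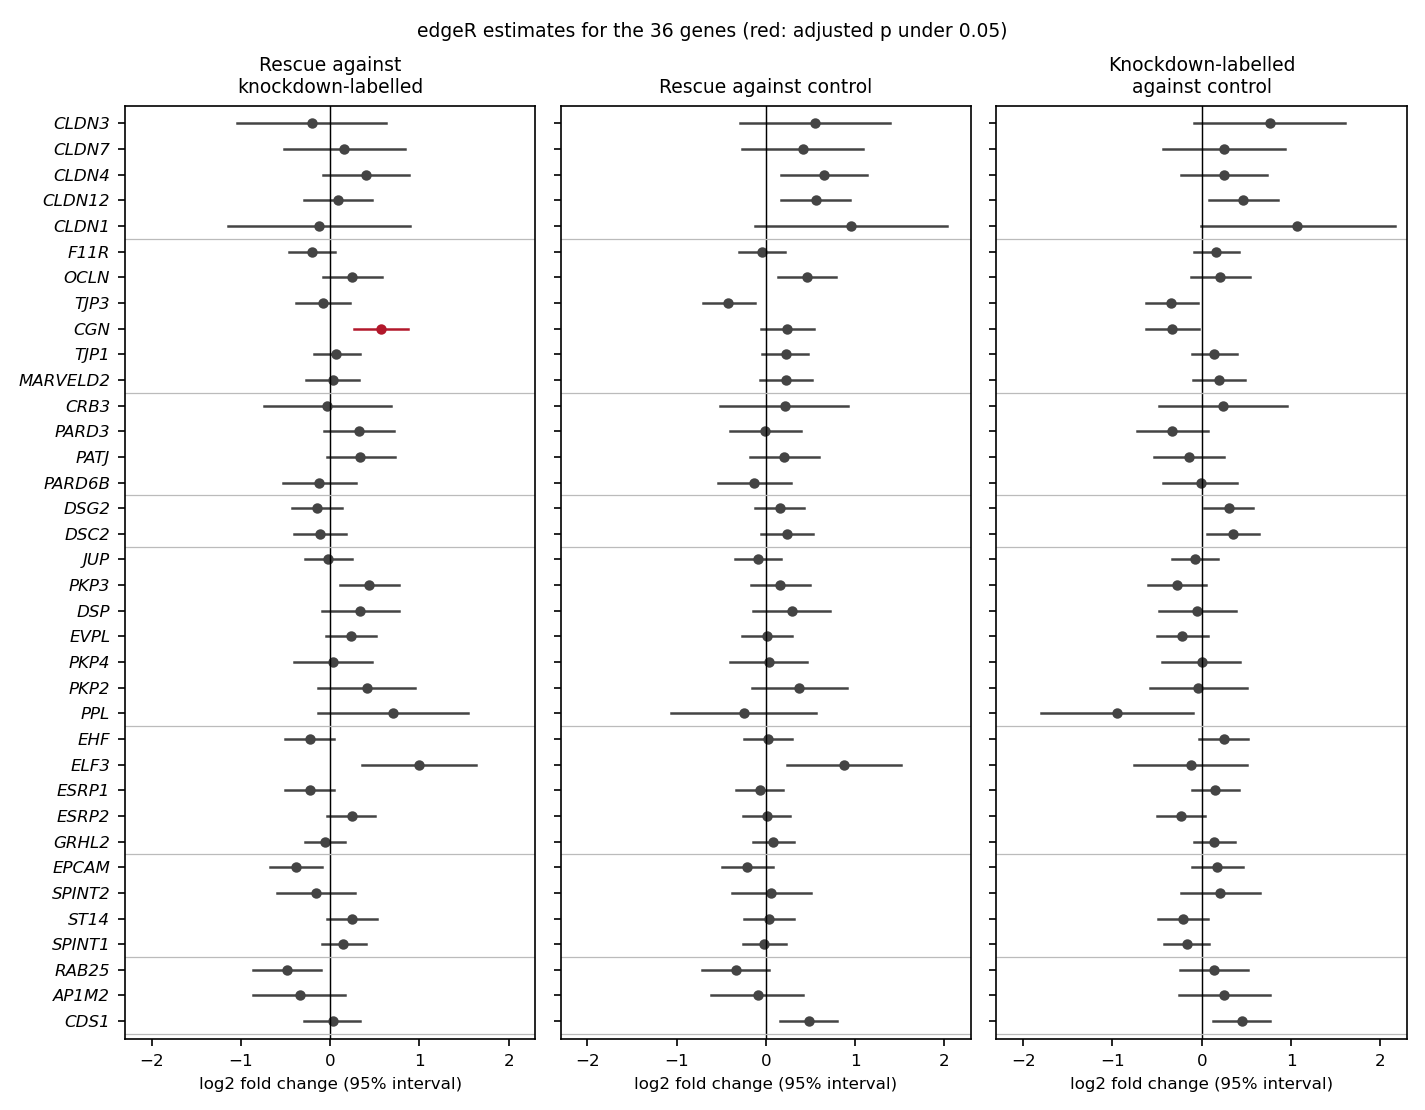
Log2 fold change of each member with its 95% interval in rescue over knockdown-labelled, rescue over control and knockdown-labelled over control cells, from edgeR, with genes in order of role. CGN is the member that passed, in rescue over knockdown-labelled cells, and most intervals cross 0.

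Libraries of the groups failed to overlap for 6 members between rescue and knockdown-labelled cells, against 28.6% of all tested genes. CGN, ELF3, PKP3 and ST14 lay higher in all 3 rescue libraries (11.1%, against 14.6% of all genes), and EHF and EPCAM lower (5.56%, against 14%). Between rescue and control cells 13 members failed to overlap, against 26.4% of all genes: 9 lay higher in rescue (25%, against 12.8% of all genes) and 4 lower (11.1%, against 13.6%). Between knockdown-labelled and control cells 6 lay higher and 6 lower (16.7% each, against 11% and 10.2% of all genes, and 21.2% in either direction). Only CGN had its 3 rescue libraries above both other groups and only EPCAM had them below, against 6.35% and 5.46% of all genes. EHF had its knockdown-labelled libraries above both other groups, and CGN, PKP3 and ST14 had them below, against 7.36% and 6.44% of all genes. The control libraries were above both other groups for PPL and below both for CDS1, against 1.93% and 1.83% of all genes.

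Cingulin, the scaffold that binds ZO proteins to the actin ring, was the member that rose in rescue over knockdown-labelled cells. CGN stood at 66.9, 69 and 83.4 CPM in rescue libraries, 52.2, 41.8 and 53.6 CPM in knockdown-labelled libraries and 59.9, 59.3 and 66.6 CPM in control libraries. The rescue libraries lay above every library of both other groups and the knockdown-labelled ones lay below every other. The change was 1.49-fold (log2 0.57, standard error 0.136, 95% interval 0.27 to 0.87, edgeR adjusted p = 0.028), with means of 73.1 ± 8.96 CPM in rescue and 49.2 ± 6.49 CPM in knockdown-labelled cells (SD, n = 3 each). Against control, with a mean of 61.9 ± 4.05 CPM, the log2 fold change of CGN was 0.24 in rescue (edgeR adjusted p = 0.586) and -0.33 in knockdown-labelled cells (edgeR adjusted p = 0.221). The CGN call was lost when any library other than control 3 or knockdown-labelled 3 was left out (edgeR adjusted p of 0.056 to 0.112). In those fits only 134 to 843 of all genes passed, against 1651 in the fit of all 9 libraries. The call was also lost when only the rescue and knockdown-labelled libraries were fitted (edgeR adjusted p = 0.0937, where 0.0426% of all genes passed). After a correction for exon length and GC content the log2 fold change was 0.40, with an edgeR adjusted p of 0.0821, where 941 of 16187 genes passed.

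The other tight junction membrane and scaffold genes did not pass in any comparison. Occludin, which spans the junction membrane, stood at 98.1, 125 and 100 CPM in rescue libraries, 83.7, 79.5 and 108 CPM in knockdown-labelled libraries and 73.6, 74.3 and 86.8 CPM in control libraries. OCLN in every rescue library lay above every control library, while knockdown-labelled library 3 sat within the rescue range (log2 fold change of rescue over control 0.46, edgeR adjusted p = 0.299). Tricellulin, encoded by MARVELD2, seals the corners where 3 cells meet and lies 47.96 kb from OCLN on chromosome 5. MARVELD2 held 32 to 38.7 CPM in rescue, 29.6 to 37.4 CPM in knockdown-labelled and 28.4 to 31.2 CPM in control libraries, so rescue and control did not overlap by a narrow margin. ZO-1, the TJP1 product and main scaffold of the junction, ranged over 78.7 to 85.1 CPM in rescue, 71.2 to 87 CPM in knockdown-labelled and 66.3 to 75.2 CPM in control libraries. TJP3, the ZO-3 gene, went the other way. It held 42.4, 42.6 and 38.7 CPM in rescue libraries, 46.3, 42.8 and 41.8 CPM in knockdown-labelled libraries and 58.6, 61.6 and 45 CPM in control libraries, with a log2 fold change of rescue over control of -0.42 (edgeR adjusted p = 0.284). F11R, the junctional adhesion molecule A, held 77.8 to 84.9 CPM in rescue, 82.7 to 104 CPM in knockdown-labelled and 78.3 to 86.9 CPM in control libraries. F11R shares 36.6% of its exon bases with another protein-coding gene on the same strand, so its count is uncertain.

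The claudins, which set the permeability of the seal, gave positive fold changes for 5 of 5 genes in rescue over control and for 5 of 5 in knockdown-labelled over control cells, none of which passed, where 49% and 51.4% of all genes had a positive fold change. In knockdown-labelled over control cells 3 of 5 were positive with library size alone, and 2 of 5 with knockdown-labelled libraries 1 and 2 left out. In rescue over knockdown-labelled cells 3 of 5 were positive, against 49.7% of all genes, and 5 of 5 were with library size alone. Their median log2 fold change was 0.56 in rescue and 0.46 in knockdown-labelled cells over control, and 0.09 in rescue over knockdown-labelled cells, beside -0.01, 0.02 and -0.00 for all genes. CLDN4 stood at 307, 423 and 388 CPM in rescue libraries, 340, 325 and 183 CPM in knockdown-labelled libraries and 233, 224 and 254 CPM in control libraries. CLDN3, 29.27 kb away on chromosome 7, stood at 259, 265 and 332 CPM in rescue libraries, 448, 420 and 118 CPM in knockdown-labelled libraries and 166, 176 and 242 CPM in control libraries. For both genes the rescue libraries lay above all controls, and knockdown-labelled library 3 lay below all other libraries while libraries 1 and 2 lay above all controls.

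CLDN7 repeated that arrangement, with 271, 265 and 296 CPM in rescue libraries, 337, 299 and 109 CPM in knockdown-labelled libraries and 202, 209 and 216 CPM in control libraries. CLDN12, which has no PDZ-binding tail, held 45.7, 44.6 and 50.5 CPM in rescue libraries, 45.5, 53.1 and 33.2 CPM in knockdown-labelled libraries and 30.7, 28.1 and 36.9 CPM in control libraries. CLDN1 was low throughout, at 2.38 to 6.56 CPM in rescue, 2.61 to 5.65 CPM in knockdown-labelled and 1.12 to 2.56 CPM in control libraries. In rescue over control the log2 fold changes were 0.65 for CLDN4 (edgeR adjusted p = 0.306), 0.56 for CLDN12 (0.274), 0.55 for CLDN3 (0.688) and 0.41 for CLDN7 (0.721). CLDN7 shares 10.8% of its exon bases with another protein-coding gene on the same strand. CLDN12 shares 5.15% with GTPBP10, also on its strand, and smaller or like parts with other genes. Both counts are uncertain to that extent.

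The knockdown-labelled libraries were the most uneven for the abundant claudins: the SD of CLDN3 was 40.5 CPM in rescue, 183 CPM in knockdown-labelled and 41.2 CPM in control libraries. With the rescue and control libraries fitted alone, 7 members passed, all higher in rescue, where 5.87% of genes passed. In that fit the passing members were CLDN3, CLDN4, CLDN7, CLDN12, OCLN, ELF3 and CDS1, with log2 fold changes of 0.41 to 0.88, close to those of the fit of all 9 libraries. With knockdown-labelled library 3 left out, 9 members passed in rescue over control, the same 7 plus TJP3 and RAB25, both lower, where 7.38% of genes passed.

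**Figure D2:**
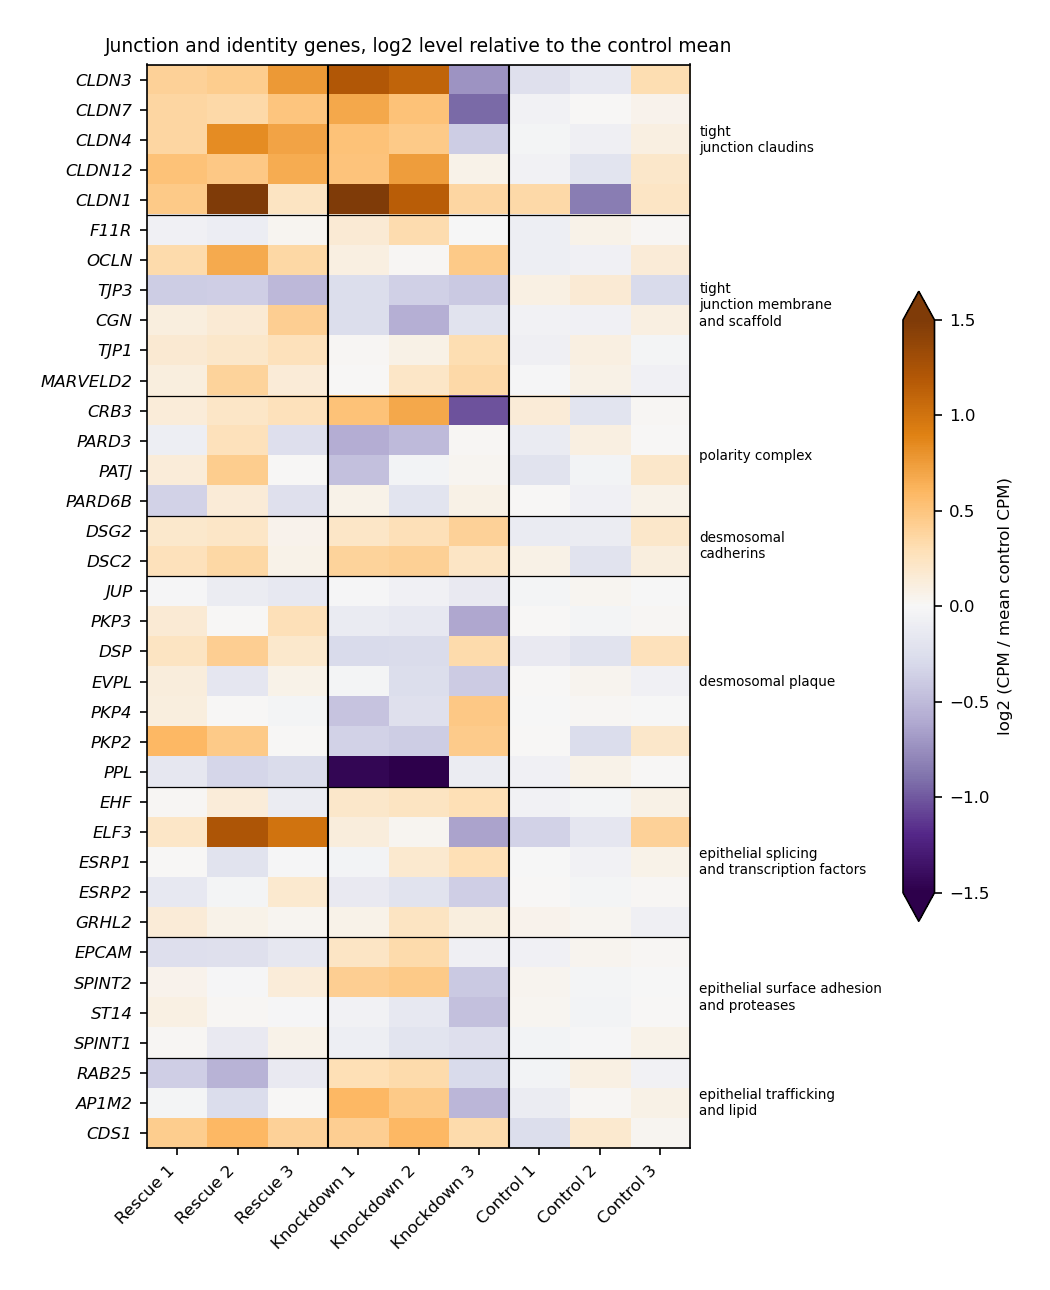
Log2 level of each of the 36 members in each library relative to the mean of the 3 control libraries, with genes ordered by role and rescue, knockdown-labelled and control libraries from left to right. Orange is above and purple below the control mean, with colours clipped at 1.5 either way. Knockdown-labelled library 3 departs from libraries 1 and 2 for CLDN3, CLDN7 and CRB3 downwards and for PPL, PKP2 and PKP4 upwards.

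Polarity genes did not pass in any comparison. CRB3, the Crumbs protein of epithelia, stood at 31.7, 33.6 and 34.9 CPM in rescue libraries, 41.3, 46.4 and 14.3 CPM in knockdown-labelled libraries and 32, 25.4 and 29.2 CPM in control libraries. All 3 groups overlapped, and knockdown-labelled library 3 was the lowest of the 9 libraries. PARD3, the Par complex scaffold, ranged over 56.3 to 80.2 CPM in rescue, 44.5 to 67.5 CPM in knockdown-labelled and 61.3 to 71.3 CPM in control libraries. PATJ, which joins Crumbs to the junction, held 31.8 to 43.1 CPM in rescue, 23 to 32.4 CPM in knockdown-labelled and 27.6 to 36.7 CPM in control libraries, and PARD6B, the Par6 adaptor, held 8.96 to 12.7, 10.1 to 12.1 and 10.9 to 11.9 CPM in the same order. The median log2 fold change of these 4 genes was 0.15 in rescue over knockdown-labelled, 0.10 in rescue over control and -0.08 in knockdown-labelled over control cells.

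Both desmosomal cadherins had positive fold changes over control in both modified lines, and neither passed. Of all genes 49% had a positive fold change in rescue and 51.4% in knockdown-labelled cells over control. DSG2, the desmoglein of simple epithelia, held 149 to 167 CPM in rescue, 166 to 189 CPM in knockdown-labelled and 132 to 165 CPM in control libraries. DSC2, its desmocollin partner 395.5 kb away on chromosome 18, held 168 to 206 CPM in rescue, 188 to 215 CPM in knockdown-labelled and 139 to 173 CPM in control libraries. Knockdown-labelled and control libraries did not overlap for either gene, with log2 fold changes of 0.30 for DSG2 (edgeR adjusted p = 0.225) and 0.35 for DSC2 (0.192). Of all genes 11% lay higher without overlap in that comparison.

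In the desmosomal plaque, 6 of 7 genes had a positive fold change in rescue over knockdown-labelled cells and 0 of 7 had one in knockdown-labelled over control cells, against 49.7% and 51.4% of all genes, with medians of 0.34 and -0.07 on the log2 scale, and none passed. Of the 7 genes in knockdown-labelled over control cells PKP4, PKP2, DSP and JUP lay near 0, at -0.00, -0.04, -0.05 and -0.07. In that comparison 3 of 7 were positive with knockdown-labelled library 1, library 2 or both left out, and 3 of 7 after the correction for exon length and GC content. With control library 2 or control library 3 left out 1 and 2 of 7 were positive. In rescue over knockdown-labelled cells 3 of 7 were positive with knockdown-labelled libraries 1 and 2 left out. Plakophilin 3, the most abundant plakophilin here per kilobase, stood at 314, 282 and 344 CPM in rescue libraries, 258, 252 and 184 CPM in knockdown-labelled libraries and 283, 274 and 284 CPM in control libraries. The knockdown-labelled libraries of PKP3 lay below all others, and the log2 fold change of rescue over knockdown-labelled cells was 0.44 (95% interval 0.11 to 0.77, edgeR adjusted p = 0.0852). Periplakin (PPL), a minor transcript in these cells, stood at 7.25, 6.47 and 6.66 CPM in rescue libraries, 2.96, 2.12 and 7.51 CPM in knockdown-labelled libraries and 7.69, 8.47 and 8.1 CPM in control libraries. Control libraries lay above all others, and knockdown-labelled libraries 1 and 2 were the lowest, with a log2 fold change of knockdown-labelled over control of -0.95 (edgeR adjusted p = 0.216).

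Desmoplakin (DSP), the keratin anchor, held 364, 413 and 349 CPM in rescue libraries, 250, 254 and 386 CPM in knockdown-labelled libraries and 281, 268 and 372 CPM in control libraries. Here library 3 of the knockdown-labelled and of the control group both lay within the rescue range, and the groups overlapped. Plakoglobin was near level, at 535 to 584 CPM in rescue, 539 to 587 CPM in knockdown-labelled and 583 to 608 CPM in control libraries. Of the remaining plaque genes, PKP2 held 19.8 to 29.7 CPM in rescue, 15.2 to 27 CPM in knockdown-labelled and 16.5 to 22.8 CPM in control libraries. PKP4 held 74.4 to 82.3, 56.3 to 106 and 75.5 to 77 CPM in the same order, and envoplakin (EVPL) held 94.5 to 116, 81.5 to 105 and 103 to 110 CPM.

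Among the transcription and splicing factors ELF3 had the widest difference. ELF3, an ETS factor of simple epithelia, stood at 201, 403 and 346 CPM in rescue libraries, 188, 177 and 111 CPM in knockdown-labelled libraries and 135, 154 and 229 CPM in control libraries. Every rescue library lay above every knockdown-labelled one, while rescue library 1 sat below control library 3. The log2 fold change was 1.00 in rescue over knockdown-labelled cells (95% interval 0.36 to 1.63, edgeR adjusted p = 0.0533) and 0.87 over control (0.30). ELF3 shares 9.23% of its exon bases with an antisense gene, ELF3-AS1, which had a median of 811 counts, and since it is not given whether counting used strand, the ELF3 count is uncertain.

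EHF, also an ETS factor of epithelia, lay highest in the knockdown-labelled libraries. It held 482, 520 and 438 CPM in rescue libraries, 545, 558 and 585 CPM in knockdown-labelled libraries and 459, 463 and 501 CPM in control libraries, with a log2 fold change of -0.23 in rescue over knockdown-labelled cells (edgeR adjusted p = 0.254). GRHL2, the Grainyhead factor of epithelia, was among the steadiest members, at 78.7 to 85.6 CPM in rescue, 80.9 to 91 CPM in knockdown-labelled and 73 to 80 CPM in control libraries. Of the epithelial splicing regulators, ESRP1 held 104 to 120 CPM in rescue, 117 to 147 CPM in knockdown-labelled and 116 to 126 CPM in control libraries, and the groups overlapped. ESRP2 held 116 to 146, 99.6 to 117 and 126 to 131 CPM in the same order. The knockdown-labelled libraries of ESRP2 lay below all controls (log2 fold change of knockdown-labelled over control -0.23, edgeR adjusted p = 0.327).

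EPCAM, the homophilic adhesion molecule that binds claudin 7, lay lowest in rescue. It stood at 244, 246 and 257 CPM in rescue libraries, 338, 362 and 272 CPM in knockdown-labelled libraries and 277, 296 and 291 CPM in control libraries. The rescue libraries lay below every other library, while knockdown-labelled library 3 lay just under the lowest control (log2 fold change of rescue over knockdown-labelled cells -0.38, 95% interval -0.67 to -0.09, edgeR adjusted p = 0.0872). Matriptase, the ST14 serine protease of epithelial membranes, held 254, 241 and 235 CPM in rescue libraries, 230, 215 and 173 CPM in knockdown-labelled libraries and 244, 232 and 239 CPM in control libraries. Knockdown-labelled libraries were the lowest, and rescue over control gave a log2 fold change of 0.03. Its inhibitors SPINT1 and SPINT2 held 174 to 200 and 344 to 385 CPM in rescue, 163 to 181 and 264 to 480 CPM in knockdown-labelled and 186 to 201 and 343 to 359 CPM in control libraries.

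Of the trafficking and lipid genes, CDS1, which makes the CDP-diacylglycerol used for phosphoinositides, was lowest in control. It stood at 30, 33.3 and 29.1 CPM in rescue libraries, 29.7, 33.3 and 27.7 CPM in knockdown-labelled libraries and 18.6, 25.1 and 22.7 CPM in control libraries. Both modified lines lay above all controls, with log2 fold changes over control of 0.48 in rescue (edgeR adjusted p = 0.261) and 0.45 in knockdown-labelled cells (0.146). RAB25, a Rab11-family GTPase of apical recycling, held 98.8, 86.9 and 116 CPM in rescue libraries, 156, 160 and 104 CPM in knockdown-labelled libraries and 124, 136 and 123 CPM in control libraries. Rescue lay below control throughout, and knockdown-labelled library 3 lay inside the rescue range (log2 fold change of rescue over knockdown-labelled cells -0.48, 95% interval -0.86 to -0.10, edgeR adjusted p = 0.103). AP1M2, the epithelial AP-1 adaptor subunit, held 101 to 122 CPM in rescue, 84.5 to 184 CPM in knockdown-labelled and 113 to 129 CPM in control libraries.

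**Figure D3:**
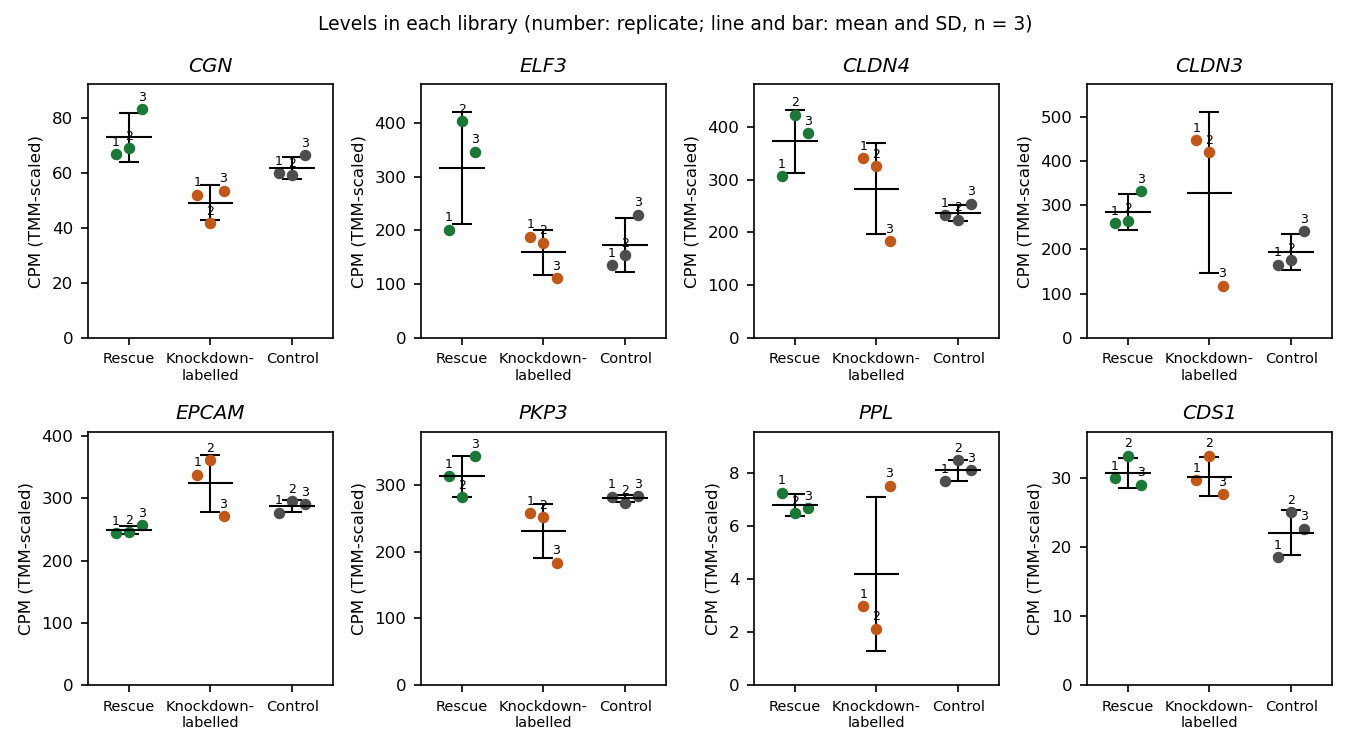
CPM (linear axis from 0, TMM-scaled) of CGN, ELF3, CLDN4, CLDN3, EPCAM, PKP3, PPL and CDS1 in rescue, knockdown-labelled and control libraries, with 1 numbered point per library and the mean and SD of each group (n = 3). The rescue points of CGN lie above and those of EPCAM below all others, the control points of CDS1 lie lowest, and knockdown-labelled library 3 lies far from libraries 1 and 2 for CLDN3 and PPL.

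Knockdown-labelled library 3 stood apart from libraries 1 and 2 within the members too. It was lower than their mean by more than 1.5-fold for 9 of 36 members, or 25%, against 23.3% of all tested genes, and higher by that much for 4, or 11.1%, against 21.4% of all genes, so the members' share of lower genes was near that of all genes. The members lowest in library 3 relative to the others were CLDN3 (log2 difference -1.87), CRB3 (-1.62), CLDN7 (-1.54) and AP1M2 (-1.05), and the highest were PPL (1.56), PKP2 (0.816), PKP4 (0.809) and DSP (0.615). The differences went with exon length. Among the 18 shorter members, of 1.27 to 5.07 kb, the median difference was -0.36 and 15 lay lower in library 3, whereas among the 18 longer ones, of 5.2 to 12.5 kb, the median was 0.21 and 7 lay lower. Spearman's rho with exon length was 0.68 over the 36 members and 0.26 over 15907 genes, and with GC content -0.37 over the members and -0.31 over those genes. These points share the same 3 libraries and are a description only.

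**Figure D4:**
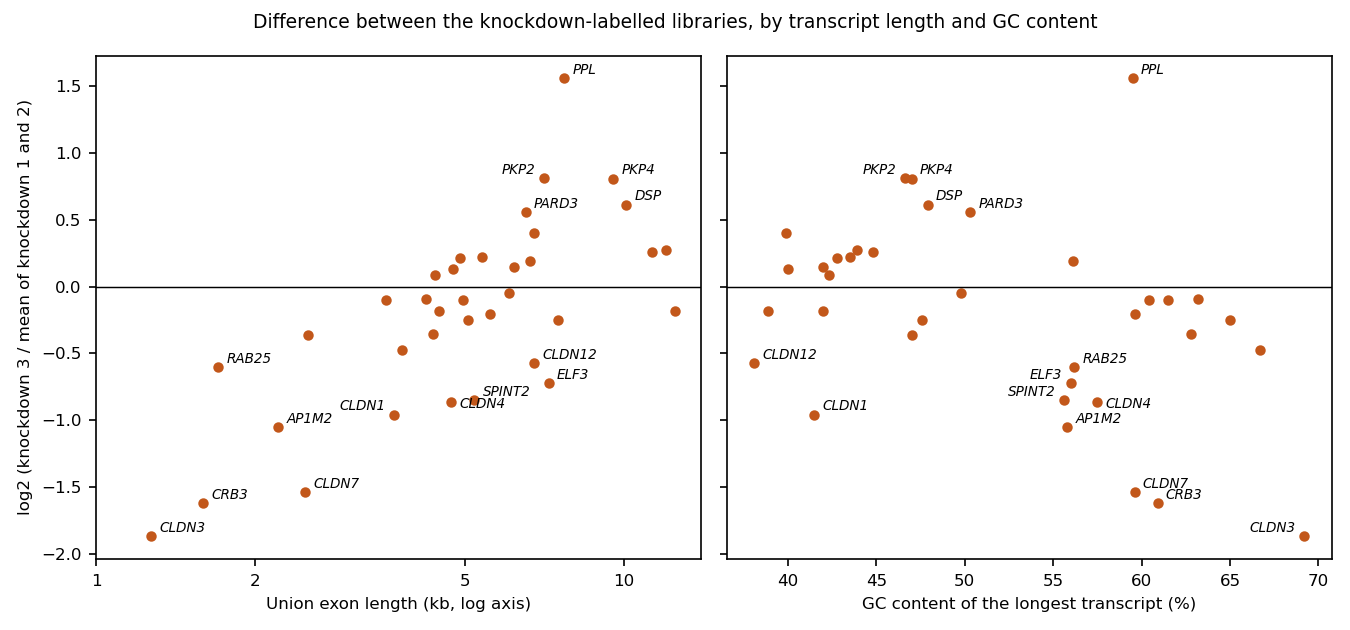
Log2 difference of knockdown-labelled library 3 from the mean of libraries 1 and 2 for each member, against exon length in kb (left, log axis) and GC content of the longest transcript in percent (right). Short members such as CLDN3 lie low and the long plaque members PPL, PKP2, PKP4 and DSP lie above 0, with rho of 0.68 for length and -0.37 for GC.

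Which knockdown-labelled libraries were used therefore set the sign of several values. For CLDN3 the log2 fold change of knockdown-labelled over control was 1.16 with library 3 left out and -0.74 with libraries 1 and 2 left out, and both passed in edgeR fits of the remaining libraries (adjusted p = 2.88e-06 and 0.0185). For CLDN3 in rescue over knockdown-labelled cells the values were -0.61 and 1.29. Without library 3, 17 members passed in rescue over knockdown-labelled and 16 in knockdown-labelled over control cells, where 39% and 32.9% of all tested genes passed. Without libraries 1 and 2, which leaves 1 knockdown-labelled library, 14 members passed in rescue over knockdown-labelled, 8 in rescue over control and 8 in knockdown-labelled over control cells, where 19.5%, 5.27% and 11.4% of genes passed. CGN passed in rescue over knockdown-labelled cells without library 3, at 0.64 on the log2 scale, and without libraries 1 and 2, at 0.47. Scaled by library size alone, 7, 0 and 1 members passed in these 3 comparisons, against 9.27%, 0.125% and 0.911% of all genes. That scaling split the genes passed in rescue over knockdown-labelled cells into 1327 higher and 230 lower, against 745 and 906 with TMM. The share of library counts held by all 36 members was 0.606%, 0.638% and 0.602% in rescue libraries, 0.472%, 0.472% and 0.533% in knockdown-labelled libraries and 0.532%, 0.535% and 0.568% in control libraries. These are shares of raw counts, and the mitochondrial share given above differed between the same libraries.

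Wider lists of the same pathways were read against the 9.83% of all tested genes that passed in rescue over knockdown-labelled cells. Of 44 other tight junction and polarity genes 33 were tested, and in rescue over knockdown-labelled cells 0 passed higher and 1 lower, LIN7C, the Lin-7 adaptor (log2 -0.65, edgeR adjusted p = 0.0198), which is 3.03% of the list. LIN7C held 38.2, 44.2 and 36.7 CPM in rescue libraries, 66.9, 68.1 and 51.3 CPM in knockdown-labelled libraries and 42.5, 40.3 and 42.2 CPM in control libraries. Of 9 other desmosome genes 2 were tested and 1 fell, PERP, a desmosomal membrane protein (log2 -0.54, edgeR adjusted p = 0.0371), at 181, 188 and 197 CPM in rescue libraries, 289, 314 and 221 CPM in knockdown-labelled libraries and 188, 196 and 203 CPM in control libraries. For both genes the knockdown-labelled libraries lay above all others. Among 25 other epithelial identity genes, all tested, 3 passed, or 12%, near the share of all genes: MAPK13 (log2 1.60, edgeR adjusted p = 0.038) and TMPRSS2 (0.64, 0.0402) rose and ELF5 (-1.51, 0.014) fell in rescue over knockdown-labelled cells. TMPRSS2, a membrane serine protease under androgen control, stood at 368, 374 and 449 CPM in rescue libraries, 279, 263 and 223 CPM in knockdown-labelled libraries and 239, 229 and 330 CPM in control libraries. ELF5, an ETS factor of glandular epithelium, held 2.48 to 5.4 CPM in rescue, 10.4 to 14.8 CPM in knockdown-labelled and 7.8 to 8.57 CPM in control libraries, and MAPK13, a p38 kinase, was at most 3.68 CPM in any library. None of these 3 lists had a gene past the test against control in either modified line.

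Mesenchymal and other cell type markers were given beside these results for context. Of 11 mesenchymal markers 9 were tested, and FN1, which encodes the matrix protein fibronectin, rose in rescue over control (log2 0.92, edgeR adjusted p = 0.0449). It was the 1 of 9 that passed there, or 11.1%, where 0.149% of all genes passed. FN1 stood at 108, 114 and 95.9 CPM in rescue libraries, 70.9, 81.4 and 98.1 CPM in knockdown-labelled libraries and 50.5, 52.7 and 64 CPM in control libraries. The summed level of the 11 mesenchymal markers was 156 to 180 CPM in rescue, 127 to 181 CPM in knockdown-labelled and 108 to 134 CPM in control libraries. FN1 held most of the sum in rescue. Without it the other 10 markers summed to 48 to 83.8 CPM in rescue, 55.6 to 82.3 CPM in knockdown-labelled and 56.5 to 70.4 CPM in control libraries, so that all groups overlapped. CDH2 was the largest of those 10 in every library. It held 23.5 to 32.7 CPM in rescue, 24.9 to 53.6 CPM in knockdown-labelled and 33.9 to 35.4 CPM in control libraries. The overlap of the sums therefore says little about the low markers. The fold change of rescue over control was positive for 6 of the 9 tested markers, against 49% of all genes. The median log2 fold change of the 9 was 0.73, beside -0.01 for all tested genes. It was negative for CDH11 (log2 -1.96, edgeR adjusted p = 0.184), TWIST1 (-0.54, 0.586) and CDH2 (-0.29, 0.743), none of which passed. The repressor ZEB1 stayed between 0.177 and 1.51 CPM in all 9 libraries. SNAI1 held 5.01, 3.32 and 6.36 CPM in rescue, 5.65, 4.24 and 2.39 CPM in knockdown-labelled and 2.56, 2.76 and 3.08 CPM in control libraries. ZEB2 held 1.45, 1.57 and 1.79, then 2.02, 1.85 and 0.87, then 0.815, 0.816 and 1.23 CPM in the same order. For both, rescue lay above all controls without passing (log2 0.80 and 0.73, edgeR adjusted p = 0.475 and 0.623), at low counts. The 6 fibroblast markers summed to 35.4 to 114 CPM in rescue, 35.7 to 38.5 CPM in knockdown-labelled and 16.8 to 67.3 CPM in control libraries, and 5 endothelial markers to 2.83 to 5.77, 3.9 to 4.79 and 2.55 to 7.69 CPM in the same order. COL1A1 was the largest fibroblast marker in every library. LUM held 9.36, 6.21 and 5.76 CPM in rescue, 7.81, 4.06 and 3.05 CPM in knockdown-labelled and 1.16, 0.816 and 2.26 CPM in control libraries. Its log2 fold changes over control were 2.32 in rescue (edgeR adjusted p = 0.0793) and 1.78 in knockdown-labelled cells (0.0993). Of 4 tested fibroblast markers, 4 had a positive fold change in rescue over control (median log2 1.34) and 4 in rescue over knockdown-labelled cells (0.78). In knockdown-labelled over control cells 2 of 4 were positive (0.16), and none passed in any comparison. The part of these cell type markers in the junction values was not tested.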

How the data were processed

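Total RNA of 9 LAPC4 libraries was sequenced, 3 each from rescue, knockdown-labelled and control cells. The submitters' processing notes name hg38 and the tools FastQC, cutadapt, STAR and HTSeq. Their versions, and whether counting used strand, were not given in the sources used here. Raw whole-number counts for each gene were deposited by the authors. Rows that name no gene were kept out of library sizes and tests; reads on no feature made up 43.7% to 48.7% of all counts, ambiguous reads 2.36% to 3.14% and reads with several alignments 7.67% to 11.6%. Library totals of 8132206 to 14185252 counts limit the precision of low genes.

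The test was the quasi-likelihood F test of edgeR 4.0.16 (R 4.3.3), with TMM scaling and filterByExpr (minimum count 10), fitted once to all 9 libraries with 6 residual degrees of freedom. Passing meant an adjusted p (Benjamini-Hochberg over all 16796 tested genes) under 0.05. Every adjusted p is from that fit unless another fit is named, and intervals hold 95% confidence. DESeq2 1.42.0 and limma 3.58.1 (voom) were alternatives. Exon length, GC content and overlaps came from GENCODE 29 on GRCh38 (55690 of 60325 rows matched 1 gene), and promoters from RefSeq. The 36 members, the lists, and the rule that names every member and each passing list gene and gives per-library values where the 3 libraries of a group lay outside the range of both other groups, were chosen with earlier results of these data known.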

Additional observations from a re-analysis of the deposited data

How the results depend on the processing

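The fits of all 9 libraries gave 1, 0 and 0 members passed in rescue over knockdown-labelled, rescue over control and knockdown-labelled over control cells. In rescue over knockdown-labelled cells the count was 7 with library size alone, 2 without the filter on low counts, 4 with DESeq2's Wald test (CGN, PKP3, ELF3 and EPCAM), 0 with only the groups compared, and 14 without knockdown-labelled libraries 1 and 2; leaving out 1 library gave 0 to 17, the 17 without knockdown-labelled library 3. In rescue over control it was 2 without the filter, 7 with only the groups compared and 8 without knockdown-labelled libraries 1 and 2; leaving out 1 library gave 0 to 9, the 9 without knockdown-labelled library 3. In knockdown-labelled over control it was 1 with library size alone, 1 without the filter and 8 without knockdown-labelled libraries 1 and 2; leaving out 1 library gave 0 to 16, the 16 without knockdown-labelled library 3. In the fits without libraries 1 and 2 the lone knockdown-labelled library is assumed to vary like the others. The cause of these differences was not tested. Beside the 4 members passed with DESeq2's Wald test in rescue over knockdown-labelled cells, 16.1% of all genes passed. Without the filter on low counts 2636, 401 and 1045 of 35046 genes passed in the 3 comparisons in turn. Library size alone moved the median of all genes to 0.24 in rescue over knockdown-labelled and to -0.21 in knockdown-labelled over control cells, and split the genes passed in rescue over knockdown-labelled into 1327 higher and 230 lower, against 745 and 906 with TMM. With the correction for length and GC the count in rescue over knockdown-labelled stayed at 1, but the member was RAB25 and not CGN. In that fit 941 of 16187 genes passed, against 1651 of 16796 in the main fit. Over the 19 alternatives CGN in rescue over knockdown-labelled had log2 fold changes of 0.40 to 0.80, adjusted p of 0.000424 to 0.112, and passed in 9. Values called in the fits without knockdown-labelled library 3 and without libraries 1 and 2 had opposite signs for CLDN3, CRB3, SPINT2, AP1M2 and PKP4 in rescue over knockdown-labelled cells, and for these 5 and CLDN7 in knockdown-labelled over control cells.

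Same-numbered libraries of different groups deviated together with correlations of -0.355 to 0.0784, so the numbers were not taken to pair samples. With the replicate block 0 members passed in each comparison, CGN had an adjusted p of 0.052, and the genes passed over all fell to 442, 4 and 0.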

Other observations

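Several close relatives of the members were near or at 0 in these cells. CLDN16, CLDN18 and the desmosomal CDSN had 0 counts in all 9 libraries, which allows up to 0.211 to 0.369 CPM per library (3 counts, counting error only). DSG3 had 1 count in one rescue library and 0 in the rest, and CRB1 had 1 count in one knockdown-labelled library and 0 in the rest. These are genes of stratified epithelium, retina, kidney and stomach among others, and the levels say only that they were not detectable or barely so at this depth.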
